A study of Mus musculus with 15 samples.

Results

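The maturation of XCR1+ dendritic cells (DCs) in the thymus was described from 6 arrays of sorted mouse cells, chosen by their titles out of the 15 arrays of the study. The thymus CCR7+ cells, called mature by homeostasis, were sorted as CD11c+ CD317- CD172a- CD117- CCR7+ (3 arrays), and the thymus CCR7- cells, called immature, as CD11c+ CD317- CD172a- CD117+ CCR7- (3 arrays), both from untreated mice. The same 2 gates on the spleen of untreated mice (3 arrays each) were used for tests of whether a change differed between the organs. The other 3 arrays held spleen CCR7+ cells sorted 18 h after an intraperitoneal dose of polyI:C (10 µg), and added only to the estimate of the spread. The labels at hand name no strain, age or sex. XCR1 stands in the name of the cells but not among the gates, and the gates on CCR7 and CD117 (Kit) set the groups apart, so their transcripts are no finding. Nothing in the labels says whether the 3 arrays of a group came from separate mice, pools or sort days, so the spread behind the p-values may be technical.

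DCs with the chemokine receptor XCR1 are specialised in taking up material from other cells and presenting it to CD8+ T cells. In the thymus they lie mostly in the medulla, where they present self antigens, some of them handed over by epithelial cells, and take part in the deletion of self-reactive thymocytes and in the selection of regulatory T cells. Maturation, which in the steady state needs no infection, replaces antigen sampling by antigen presentation and brings up CCR7, the receptor for the chemokines of the thymic medulla and of T cell zones.

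All values are log2 RMA signals, 1 probe set for each gene, and a change is the mean of the CCR7+ arrays minus that of the CCR7- arrays. Limma tested 13629 genes, and "rose" or "fell" means an adjusted p under 0.05. Of these genes 37.3% were called, 16.8% higher and 20.4% lower in CCR7+ cells, with a median log2 fold change of -0.06 over all genes. Counts of a list called near this share or below it do not set the list apart. Among such lists were immediate-early factors (17.4%), TGF-beta (31.8%), proteases and inhibitors (32.1%) and lectins and scavenger receptors (33.3%). Others were Zfp symbols (33.9%), ion channels (37.0%) and histone modifiers (37.5%). On 50.4% of the genes the CCR7+ and CCR7- arrays did not overlap. An exact test of 3 arrays against 3 cannot go below p = 0.1. Arrays of 1 group correlated at 0.986 to 0.990 and arrays of different groups at 0.878 to 0.902 (Pearson's r across genes). A median standard error of 0.19 stood behind the changes, and RMA compresses changes of dim genes.

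**Figure D1:**
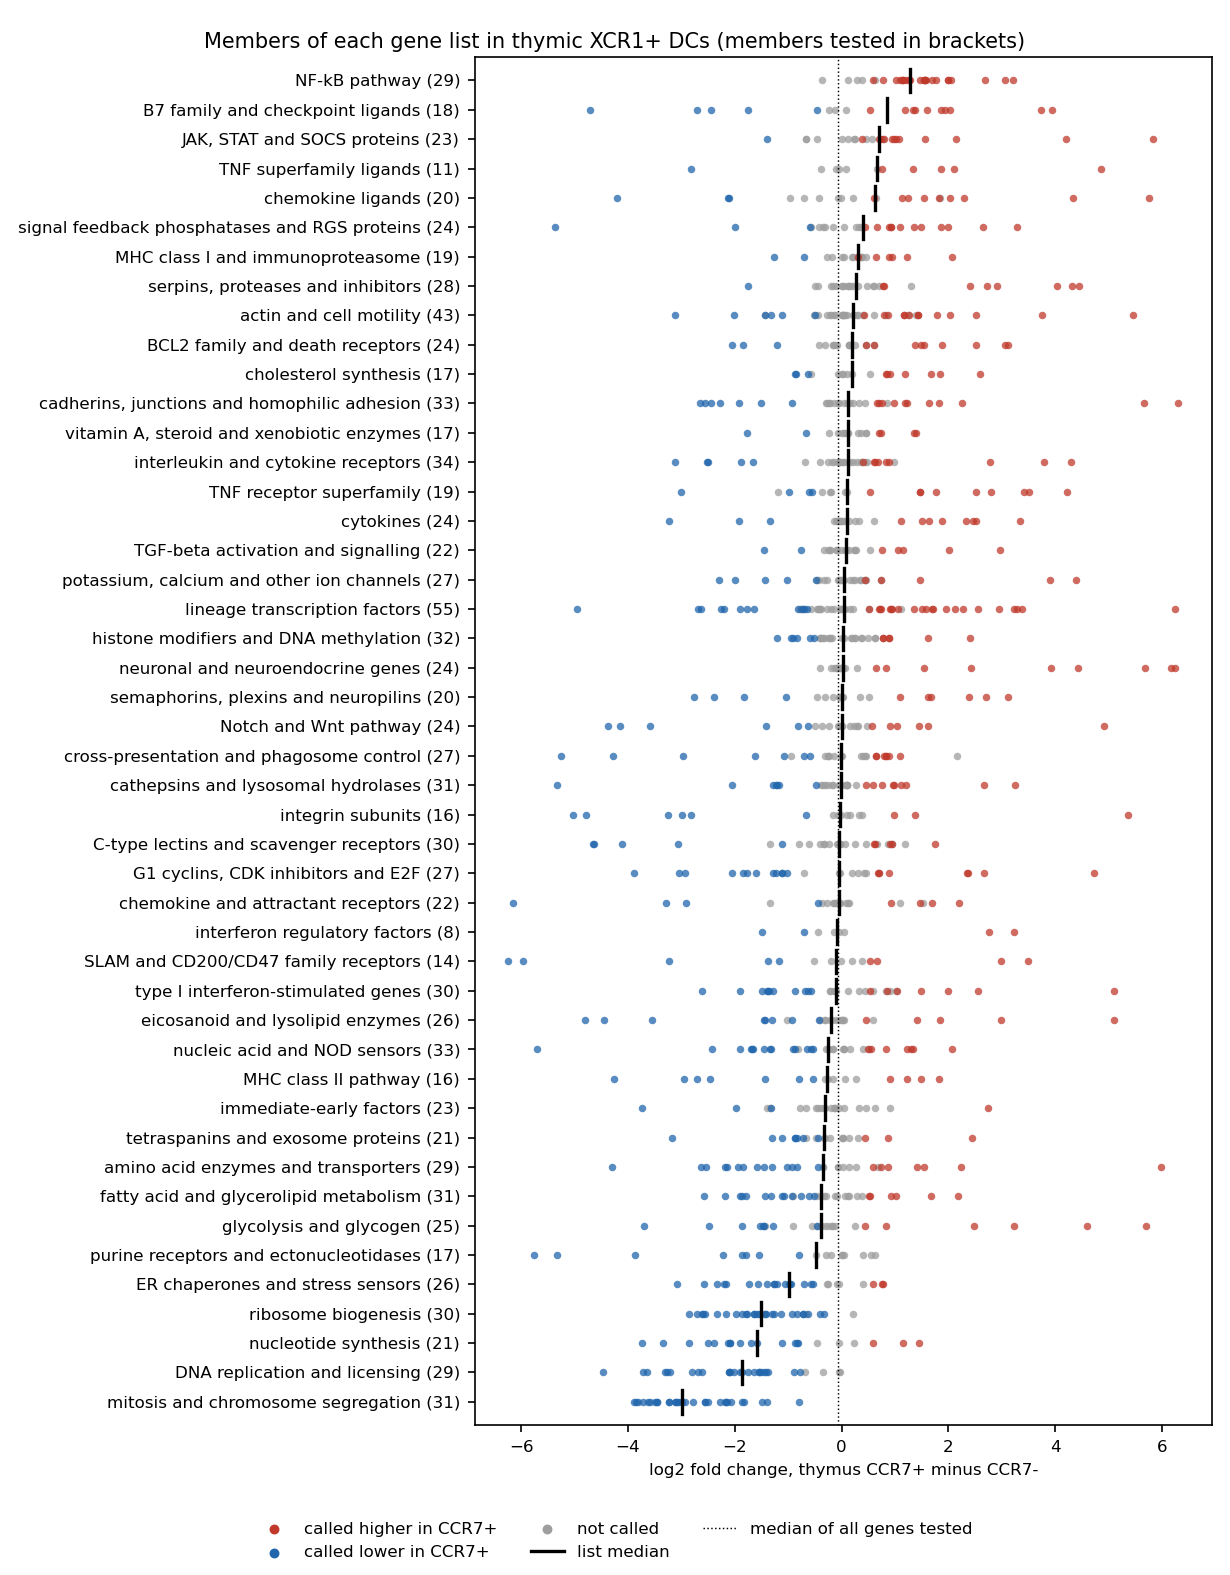
Log2 fold changes (CCR7+ minus CCR7-, x axis) of the tested members of 46 gene lists, 1 row a list, with each member as a point coloured by its call, the list median as a bar and the median of all genes (-0.06) as a dotted line. The lists on mitosis, DNA replication, nucleotide synthesis, ribosome biogenesis and endoplasmic reticulum (ER) chaperones lie to the left, the NF-kB list lies to the right, and most others spread to both sides.

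The sorted cells were compared with their defining markers. Of the transcripts of the 5 gates 2 were higher and 2 lower in CCR7+ cells. The lowest change, -3.12, was that of a gate shared by both groups, as Kit changed by -2.52. Ccr7 had 12.72, 13.13 and 13.24 in CCR7+ cells, against 8.54, 9.22 and 8.75 in CCR7- cells, and Kit had 8.22, 8.25 and 8.01 in CCR7+ cells, against 11.25, 10.10 and 10.69 in CCR7- cells. Xcr1, the receptor in the name of both groups, had 4.85, 5.09 and 5.81 in CCR7+ cells, against 11.58, 11.48 and 11.13 in CCR7- cells (log2 fold change -6.15, SE 0.56, adjusted p = 9.4e-07). The transcript was thus bright in the CCR7- cells and low on every CCR7+ array. Of 11 XCR1+ DC markers tested 7 were lower and 1 higher. Batf3, a factor that XCR1+ DCs need to develop, rose (0.93), and Irf8, the other such factor, fell (-0.71) from a bright level, a call that ended on its probe set of largest variance. The pan-DC genes Flt3 (0.16) and Zbtb46 (-0.01) were not called, at levels of 10.95 and 9.23 in CCR7+ cells. The DC factor Id2 was not called on the probe set used (0.17, at 13.16 in CCR7+ cells) but rose on its probe set of largest variance (2.05). Cadm1 (-2.65), an adhesion molecule, and Wdfy4 (-4.29), a protein needed for cross-presentation of cell-associated antigen, fell.

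Markers of other cell types also moved. Of 16 T cell and thymocyte markers tested, 10 were higher in CCR7+ cells and none lower. The mean level of the list was 6.48 to 7.48 on the CCR7+ arrays, highest on replicate 2, against 5.32 to 5.99 on the CCR7- arrays. Rag1, a recombinase of immature lymphocytes, had 8.81, 10.07 and 8.49 in CCR7+ cells, against 5.96, 7.39 and 5.45 in CCR7- cells, and Cd3g, a chain of the T cell receptor complex, had 8.80, 9.83 and 7.92 in CCR7+ cells, against 5.73, 7.35 and 5.88 in CCR7- cells. Bcl11b (2.14), Cd247 (2.76), Cd8b1 (1.78) and Cd3d (1.42) rose as well, while Cd3e (0.41), Ptcra (0.25) and Zap70 (-0.11) were not called. Rag2 and Gata3 lay below the filter on dim genes. The count of T cell markers was 9 without CCR7+ replicate 2. In spleen, where 36.5% of all genes were called, 2 of the 16 T cell markers were called between the same fractions, at a mean level of 5.23 in CCR7+ and 4.91 in CCR7- cells. In such bulk samples fewer cells of a type and less RNA per cell cannot be told apart.

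Among 8 B cell markers 3 were higher, and 0 were called without CCR7- replicate 1 or without CCR7- replicate 3 (1 without CCR7+ replicate 1 or 2). Their mean level was 5.30 to 6.57 on CCR7+ arrays, against 4.88 to 5.22 on CCR7- arrays, and Pax5, the factor that defines B cells, was at 4.43 in CCR7+ and 4.51 in CCR7- cells. In spleen 6 of the 8 B cell markers were called between the same fractions, at a mean level of 6.51 in CCR7+ and 5.32 in CCR7- cells. Of 12 macrophage markers 6 were higher (3 without CCR7+ replicate 2 and 3 without CCR7- replicate 1). Spic and Vcam1 were among them (1.69 and 1.59), while Adgre1, which encodes F4/80, had 5.60 in CCR7+ and 6.29 in CCR7- cells and was not called. The macrophage list averaged 5.80 to 6.49 on CCR7+ arrays, against 5.33 to 5.38 on CCR7- arrays. Markers of CD172a+ DCs and monocytes were lower in 3 of 9 cases, with the receptor Ccr2 (-2.91) and the lectin Mgl2 (-2.38) among them. For thymic epithelium the keratins Krt8 (1.44) and Krt18 (0.65) rose and Epcam fell, and Aire (0.35) and Foxn1 (-0.12), near 5.45 and 4.66 in CCR7+ cells, were not called. No marker of neutrophils, stroma or red cells and none of 10 handling stress genes was called. The part of any of these cell types in the changes below was not tested.

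**Figure D2:**
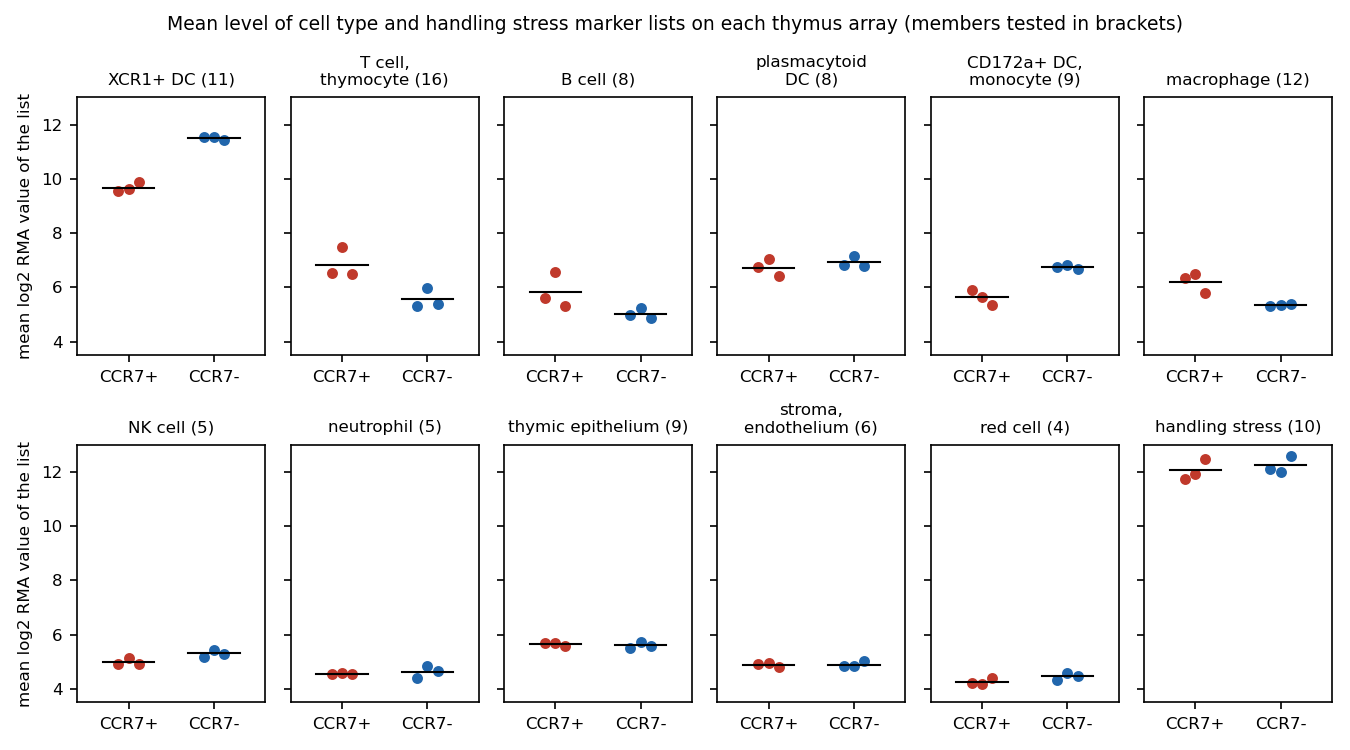
Mean log2 RMA value of each marker list (y axis) on the 3 CCR7+ and 3 CCR7- thymus arrays, with group means as bars. T cell, B cell and macrophage lists are higher on CCR7+ arrays (T cell list 6.48 to 7.48, against 5.32 to 5.99), and the handling stress list is bright on all 6.

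Adhesion genes changed in both directions with thymic maturation. Of 33 genes of cadherins, junctions and homophilic adhesion, 11 rose and 7 fell (median 0.13). Cdh2, which encodes N-cadherin, had 11.62, 11.35 and 11.41 in CCR7+ cells, against 5.23, 5.36 and 4.88 in CCR7- cells (log2 fold change 6.31, SE 0.79, adjusted p = 1.92e-05). Cdh1, the E-cadherin gene, had 3.53, 3.38 and 3.07 in CCR7+ cells, against 4.99, 4.97 and 4.57 in CCR7- cells (log2 fold change -1.51, SE 0.24, adjusted p = 0.00018). The arrays of the fractions did not overlap for either gene. Cdh1 was dim, below 4.39, the level of the filter on dim genes, on the CCR7+ arrays and little above it on the CCR7- arrays, so the size of its fall is uncertain. Dscaml1, a homophilic adhesion molecule known from the retina, rose by 5.66, Esam, an adhesion molecule of endothelial and some blood cells, by 2.26, and the connexin genes Gja1 and Gjb2, whose proteins form gap junctions, by 1.83 and 1.64. Of the claudins, the strand proteins of tight junctions, Cldn1 had 9.70, 9.23 and 9.58 in CCR7+ cells, against 12.30, 11.90 and 11.96 in CCR7- cells, and Cldn7 fell by 2.44. Epcam, an adhesion molecule of epithelia that binds claudins, had 7.86, 8.58 and 8.06 in CCR7+ cells, against 10.38, 10.52 and 10.43 in CCR7- cells (log2 fold change -2.28, SE 0.29, adjusted p = 2.66e-05). The catenin genes Ctnna1 (0.65) and Jup (0.97) rose, Ctnnd2 fell (-1.92), and Ctnnb1, beta-catenin, was not called (0.15).

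Integrin subunits, which pair as alpha and beta chains on the cell surface, also changed in both directions. Of 16 tested 3 rose and 6 fell. Itgb8, whose product activates latent TGF-beta when paired with the alpha v chain, had 9.48, 8.63 and 8.27 in CCR7+ cells, against 3.501, 3.43 and 3.37 in CCR7- cells (log2 fold change 5.36, SE 0.55, adjusted p = 3.14e-06). Its partner Itgav was not called (0.37). Itga4 (1.37) and Itgb1 (0.97), which form VLA-4, rose together. Itgae, the CD103 chain, had 7.35, 7.06 and 7.83 in CCR7+ cells, against 12.14, 12.32 and 12.11 in CCR7- cells, and its partner Itgb7 fell by 2.83. Both leukocyte chains of LFA-1 fell, Itgb2 to 7.60, 8.73 and 8.12 in CCR7+ cells, against 11.58, 11.45 and 11.19 in CCR7- cells, and Itgal fell by 2.997. Itga8, the partner of Itgb1 in a matrix receptor, fell by 5.03 to 4.91, which is close to background.

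Receptors that steer migration were called about as often as genes in general. Of 22 chemokine and attractant receptors tested, 4 rose and 4 fell. Ccr6 (2.20), S1pr1 (1.69) and Cxcr5 (1.48) rose beside the T and B cell markers above, and the part of lymphocytes in these rises was not tested. S1pr1, the sphingosine-1-phosphate receptor that lets thymocytes and DCs leave tissues, had 6.85, 7.29 and 6.74 in CCR7+ cells, against 4.996, 5.44 and 5.38 in CCR7- cells. Cxcr3, the receptor for chemokines induced by interferon gamma, fell to 6.61, 6.92 and 6.28 in CCR7+ cells, against 9.86, 10.01 and 9.80 in CCR7- cells. Cxcr4 (0.08) and Gpr183 (-0.27) were not called. Among chemokine ligands, 9 of 20 rose and 3 fell, and changes over the list ran from -4.20 to 5.77. Ccl17 (2.03), a ligand of CCR4, and the membrane-bound Cx3cl1 (1.82) and Cxcl16 (1.12) rose, as did Ccl5 (5.77). Ccl25, a ligand for CCR9 on thymocytes, had 6.87, 7.31 and 6.10 in CCR7+ cells, against 5.39, 5.63 and 5.54 in CCR7- cells (log2 fold change 1.24, SE 0.24, adjusted p = 0.000803). The inflammatory chemokines Ccl3 and Ccl4 fell by 2.11 and 2.13.

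Genes of the actin skeleton, 43 of which were tested, rose in 13 cases and fell in 6 (median 0.22). The share called was 44.2%, against 37.3% of all genes, and changes ran from -3.12 to 5.46. Synpo2, an actin-bundling protein of muscle, had 10.57, 10.82 and 10.72 in CCR7+ cells, against 5.10, 5.67 and 4.95 in CCR7- cells (log2 fold change 5.46, SE 0.33, adjusted p = 2.25e-08). Samsn1, a signalling adaptor (3.74), the GTPase Rhoc (2.52), the Cdc42 effector Cdc42ep3 (2.03) and the unconventional myosins Myo1g (1.78) and Myo1c (1.43) also rose. The filament regulators Gsn (-2.02), Coro1a (-1.44) and Lcp1 (-1.12) fell, and so did Was (-1.32), an activator of actin branching. Actg1 (0.07), Cfl1 (-0.12), Rac1 (-0.20), Cdc42 (0.04) and Rhoa (0.10) were not called. Fscn1, the bundling protein of DC dendrites, was not called on the probe set used (1.40), while 3 of its 4 probe sets rose, up to 4.14.

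Ligands and receptors of the tumour necrosis factor (TNF) family connect mature DCs with T cells. Of 11 ligands 5 rose and 1 fell, and changes over the list ran from -2.83 to 4.86. Tnfsf9, the ligand of 4-1BB, had 9.61, 9.44 and 10.80 in CCR7+ cells, against 7.56, 7.34 and 8.65 in CCR7- cells (log2 fold change 2.10, SE 0.38, adjusted p = 0.000491). Lta, lymphotoxin alpha, rose by 1.85, and Tnfsf13b, the B cell survival factor BAFF, fell to 5.27, 5.01 and 5.26 in CCR7+ cells, against 7.98, 7.71 and 8.34 in CCR7- cells. Of 19 receptors 9 rose and 4 fell, and changes over the list ran from -2.999 to 4.225. Tnfrsf11a, which encodes RANK, the receptor of the medullary cytokine RANKL, had 9.30, 9.21 and 9.34 in CCR7+ cells, against 5.75, 5.58 and 5.96 in CCR7- cells (log2 fold change 3.52, SE 0.16, adjusted p = 1.74e-09). Tnfrsf1b, the second TNF receptor, had 11.46, 12.16 and 11.56 in CCR7+ cells, against 8.26, 8.83 and 7.84 in CCR7- cells (log2 fold change 3.42, SE 0.29, adjusted p = 5.47e-07). The first TNF receptor, Tnfrsf1a, fell (-0.98), so the 2 receptors of TNF moved in opposite directions. Tnfrsf9 (2.80), Relt (1.77), Cd40 (1.47) and Tnfrsf18 (1.46) rose, and Ltbr (-0.23), the lymphotoxin receptor, was not called.

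NF-kB factors act downstream of these receptors, held in the cytosol by inhibitors until kinases release them. Of 29 genes of the pathway tested 23 rose and none fell (median 1.28). By role, the subunits Relb (3.21), Rel (2.04), Nfkb2 (1.78) and Rela (1.02) rose. The adaptors and ligases Malt1 (2.69), Traf1 (1.998), Traf2 (1.56) and Traf6 (1.55) rose, and so did the kinases Map3k14 (1.68), which starts the non-canonical branch, Ikbkb (1.58), Ikbke (1.27) and Tbk1 (0.78). Among inhibitors, Nfkbib (1.47), Nfkbie (1.15), Tnfaip3 (1.28) and Tnip1 (1.10) rose, while Nfkbia (0.13) and Cyld (0.39) were not called. Nfkbia rose on its probe set of largest variance (1.10), and Cyld was called with the mean of its probe sets or without CCR7- replicate 1. Nfkb2 had 7.76, 8.75 and 8.75 in CCR7+ cells, against 6.597, 6.79 and 6.54 in CCR7- cells (log2 fold change 1.78, SE 0.30, adjusted p = 0.00027), and Rel had 9.74, 9.92 and 10.71 in CCR7+ cells, against 7.76, 7.69 and 8.79 in CCR7- cells (log2 fold change 2.04, SE 0.41, adjusted p = 0.00121).

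The promoters of these genes were searched for the NF-kB consensus site, on both strands of windows of 300 bases from 250 before to 50 after the start (RefSeq, GRCm38.p6). The tested pathway genes matched 24 genes with 35 promoters there, and 13 of the 35 (37.1%) held the site, against 5.30% of the promoters of all genes tested and 4.51% of all 32851 promoters. Of the promoters of genes called at least 4-fold higher (3.09% of genes tested) 8.86% held it, and of those called at least 4-fold lower (3.65%) 3.31%. A match is only a run of letters, not a measured binding site. The bases before the start are shown for 4 genes that rose and hold the site, 5′ to 3′ on the strand of the gene, with matches in capitals; neighbouring capitals can be overlapping matches. Cxcl1, a chemokine, had 10.52, 9.67 and 12.07 in CCR7+ cells, against 5.76, 6.58 and 6.93 in CCR7- cells, and Tnfrsf9, the gene of 4-1BB, had 9.48, 9.52 and 9.77 in CCR7+ cells, against 6.34, 7.41 and 6.63 in CCR7- cells.
Nfkb2, chr19:46304487-46304736, + strand: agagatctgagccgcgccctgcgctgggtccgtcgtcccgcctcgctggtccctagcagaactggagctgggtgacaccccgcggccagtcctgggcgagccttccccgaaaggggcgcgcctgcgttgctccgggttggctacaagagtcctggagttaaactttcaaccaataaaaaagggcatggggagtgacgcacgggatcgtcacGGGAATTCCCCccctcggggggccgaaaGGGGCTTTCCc
Rel, chr11:23770970-23771219, - strand: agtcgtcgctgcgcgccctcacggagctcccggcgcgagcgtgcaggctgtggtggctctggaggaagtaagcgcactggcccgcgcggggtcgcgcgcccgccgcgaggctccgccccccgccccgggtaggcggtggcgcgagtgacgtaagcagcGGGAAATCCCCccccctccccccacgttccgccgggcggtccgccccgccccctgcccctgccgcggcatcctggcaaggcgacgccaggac
Cxcl1, chr5:90890995-90891244, + strand: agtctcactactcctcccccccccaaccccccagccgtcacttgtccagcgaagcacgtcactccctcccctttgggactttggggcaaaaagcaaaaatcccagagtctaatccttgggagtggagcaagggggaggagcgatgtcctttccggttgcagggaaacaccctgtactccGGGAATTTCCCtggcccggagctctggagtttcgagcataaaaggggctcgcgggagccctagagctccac
Tnfrsf9, chr4:150927749-150927998, + strand: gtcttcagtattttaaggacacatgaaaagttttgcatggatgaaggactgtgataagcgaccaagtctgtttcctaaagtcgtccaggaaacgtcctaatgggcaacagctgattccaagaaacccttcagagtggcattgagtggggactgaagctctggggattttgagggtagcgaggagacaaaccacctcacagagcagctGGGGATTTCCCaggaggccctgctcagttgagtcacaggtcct
The nearest match began 11 bases before the start in Nfkb2, 42 in Tnfrsf9, 70 in Cxcl1 and 91 in Rel.

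Cytokine receptors were called nearly as often as genes in general (41.2%, against 37.3%). Of 34 receptors 9 rose and 5 fell, with Kit, which was set by the gate and is no finding, counted among the falls. Il7r, the receptor chain for interleukin 7 and TSLP, had 10.05, 10.12 and 9.69 in CCR7+ cells, against 6.38, 6.52 and 5.62 in CCR7- cells (log2 fold change 3.78, SE 0.46, adjusted p = 1.67e-05), and Il21r rose by 2.78. Il7r, which lymphocytes also express, rose by 4.30 between the same fractions in spleen (adjusted p = 9.5e-06), where B cell markers moved too. Il15ra, which presents interleukin 15 to neighbouring cells, rose with Il15 (4.30 and 3.34). Il6ra (-3.12), Ifngr1 (-1.89) and Il1rap (-1.65), receptor chains for interleukin 6, interferon gamma and interleukin 1, fell. Ifnar1 (-0.26) and Il10ra (0.36) were not called.

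Of 23 JAK, STAT and SOCS genes 12 rose and 1 fell (median 0.71). Stat4, which signals for interleukin 12 and type I interferon, had 8.95, 9.75 and 9.58 in CCR7+ cells, against 3.07, 4.09 and 3.63 in CCR7- cells (log2 fold change 5.83, SE 0.37, adjusted p = 3.18e-08). Socs2, a suppressor of cytokine signals, had 12.76, 13.04 and 12.86 in CCR7+ cells, against 8.50, 8.92 and 8.61 in CCR7- cells (log2 fold change 4.21, SE 0.28, adjusted p = 5.04e-08). Stat3 (1.56) and Stat6 (0.98) and the inhibitors Pias1 (1.07) and Pias3 (2.15) rose, Stat2 fell (-1.39), and Socs1 (0.23) and Socs3 (-0.66) were not called. Genes that damp other signals rose in 12 of 24 cases and fell in 3. Spred1, an inhibitor of Ras signalling, had 10.80, 10.51 and 10.92 in CCR7+ cells, against 7.55, 7.25 and 7.60 in CCR7- cells, and the phosphatases Dusp5 (1.98) and Dusp14 (1.87) rose. Regulators of G protein signalling split, with Rgs1 (2.64) and Rgs3 (1.48) higher and Rgs18 (-5.36) and Rgs2 (-2.004) lower.

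Among secreted cytokines 8 of 24 rose and 3 fell. Osm, oncostatin M, had 7.48, 7.85 and 8.11 in CCR7+ cells, against 5.44, 5.35 and 5.67 in CCR7- cells (log2 fold change 2.33, SE 0.16, adjusted p = 6.79e-08). Il18bp, the soluble inhibitor of interleukin 18, had 7.91, 8.06 and 8.17 in CCR7+ cells, against 5.498, 5.56 and 5.53 in CCR7- cells, while Il18 itself had 6.85, 6.36 and 6.45 in CCR7+ cells, against 9.63, 9.49 and 10.25 in CCR7- cells. The inhibitor rose and the cytokine fell, with no overlap of the arrays for either. Ebi3 (1.64), Csf1 (1.87), the interleukin 1 antagonist Il1rn (1.502) and Il7 (1.11) rose, Il16 fell (-1.93), and Il10 (-0.06), Ifnb1 (-0.11) and Il6 (0.60) were not called.

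Surface pairs between DCs and other cells moved both ways. Of 18 B7 family and checkpoint genes 10 rose and 5 fell, and changes over the list ran from -4.72 to 3.95. Pdcd1lg2, the ligand PD-L2, had 10.01, 10.31 and 10.60 in CCR7+ cells, against 6.31, 6.995 and 6.41 in CCR7- cells, and Pvr, the ligand of TIGIT and CD96, rose by 2.03 with Nectin2 (1.18) and Icosl (1.38). Vsir, which encodes VISTA, fell to 8.74, 8.64 and 8.43 in CCR7+ cells, against 10.45, 10.31 and 10.32 in CCR7- cells, and Lgals9, a ligand of TIM-3, fell by 2.44. Icos (1.93), Cd28 (1.85) and Cd96 (1.33), receptors best known from T cells, rose beside the T cell markers above; in spleen their changes were 2.64, 0.07 and 0.12. Of 14 receptors of the SLAM family and of CD200 and CD47, through which blood cells bind each other, 4 rose and 5 fell. Cd244a, a receptor of natural killer and myeloid cells, had 4.34, 3.96 and 3.97 in CCR7+ cells, against 10.35, 10.17 and 10.48 in CCR7- cells. Slamf1 went the other way, with 8.64, 8.56 and 8.88 in CCR7+ cells, against 5.01, 5.504 and 5.08 in CCR7- cells (log2 fold change 3.49, SE 0.24, adjusted p = 6e-08). Cd84 (-3.24) and Ly9 (-1.39) fell, Cd200, which calms myeloid cells through its receptor, rose (2.99), and Cd48 (-0.52), the ligand of Cd244a, was not called.

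Semaphorins and plexins, guidance molecules of axons that also act between immune cells, rose in 6 of 20 cases and fell in 4. Sema7a had 10.83, 11.11 and 11.56 in CCR7+ cells, against 7.97, 9.22 and 8.21 in CCR7- cells, and Sema6d (3.12), the receptors Plxnd1 (1.68) and Plxnc1 (1.61) and the co-receptor Nrp2 (2.39) rose. Sema4d (-2.77), Sema4f (-2.38) and Nrp1 (-1.83) fell, so the 2 neuropilins changed in opposite directions. In the TGF-beta list 5 of 22 genes rose and 2 fell (1 without any of CCR7- replicates 1 and 3 and CCR7+ replicates 1 and 2). Tgfb2, a ligand, had 7.995, 7.996 and 6.93 in CCR7+ cells, against 4.92, 4.42 and 4.66 in CCR7- cells, and Smad3, a signal carrier, rose by 2.01, while the receptor Tgfbr2 fell by 1.46. Tgfb1 was not called on the probe set used (-0.25) but fell on its probe set of largest variance (-1.70). Of 24 Notch and Wnt genes 6 rose and 6 fell. The Notch ligand Jag1 had 10.93, 10.73 and 10.86 in CCR7+ cells, against 5.48, 6.58 and 5.74 in CCR7- cells. The receptor Notch4 had 3.40, 3.42 and 3.78 in CCR7+ cells, against 7.79, 7.54 and 7.74 in CCR7- cells. Dll1 (0.02) and Dll4 (-0.05) were not called, and Hes1, a target of Notch, fell (-1.42). The Wnt receptors Fzd1 (-3.59) and Fzd7 (-4.37) fell and Fzd5 rose (1.45). Lef1, a Wnt factor of thymocytes, rose by 1.61 beside the T cell markers (in spleen 0.72).

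Transcription factors of cell lineages rose in 22 of 55 cases and fell in 12. Insm1, a factor of neuroendocrine cells, had 11.07, 10.03 and 10.84 in CCR7+ cells, against 4.14, 4.71 and 4.36 in CCR7- cells (log2 fold change 6.24, SE 0.48, adjusted p = 1.87e-07). Spib, an ETS factor of B cells, plasmacytoid DCs and medullary epithelium, had 8.41, 9.12 and 8.39 in CCR7+ cells, against 5.32, 5.91 and 4.85 in CCR7- cells (log2 fold change 3.28, SE 0.55, adjusted p = 0.000243). Prdm1, the repressor Blimp-1, had 6.90, 6.93 and 6.63 in CCR7+ cells, against 3.69, 4.24 and 3.66 in CCR7- cells (log2 fold change 2.95, SE 0.25, adjusted p = 5.34e-07). For all of these the 3 CCR7+ arrays lay above the 3 CCR7- arrays. Irf4 (3.23) and Irf1 (2.75) rose, and Irf7 fell (-1.4998), among 8 interferon regulatory factors. Nfil3 (1.70), Ets2 (2.12), Id3 (1.72), Hivep1 (1.96) and Vdr (1.36), the vitamin D receptor, rose. Ikzf3 (2.27), a factor of lymphocytes, rose beside the T and B cell markers and by 2.42 in spleen, beside the B cell markers there.

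Myc family factors and their antagonists moved apart. Mycl, the Myc gene of DCs, had 6.24, 5.99 and 6.28 in CCR7+ cells, against 11.22, 11.19 and 10.98 in CCR7- cells (log2 fold change -4.96, SE 0.17, adjusted p = 7.82e-10). Myc fell by 2.27, and of its antagonists Mxd1 rose by 3.37 and Mxi1 to 9.14, 9.56 and 9.21 in CCR7+ cells, against 8.21, 7.49 and 7.71 in CCR7- cells. Rxra, the common partner of nuclear receptors, had 6.28, 6.52 and 6.42 in CCR7+ cells, against 8.97, 9.32 and 8.98 in CCR7- cells (log2 fold change -2.68, SE 0.21, adjusted p = 2.44e-07). Nfatc2 (-2.64), Fli1 (-2.21) and Ahr (-1.78), the aryl hydrocarbon receptor, fell, and Spi1 (-0.43), Runx3 (-0.57), Tcf4 (-0.27) and Bcl6 (-0.40) were not called. Immediate-early factors, which respond within minutes to signals and to handling, rose in 1 of 23 cases and fell in 3 (5 without CCR7+ replicate 3). Without CCR7+ replicate 1 the count that rose was 2. Nr4a2 rose (2.75) and Egr3 (-3.74) and Klf10 (-1.98) fell, while Fos (-0.12), Jun (-0.05) and Egr1 (-0.31) were not called at levels of 13.83, 12.72 and 12.45 in CCR7+ cells. Among 32 histone modifiers 6 rose and 6 fell (3 without CCR7- replicate 1), with the deacetylase Sirt1 (2.41) and the methyltransferase Kmt2a (1.62) highest and the remodeller Hells (-1.21) lowest.

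**Figure D3:**
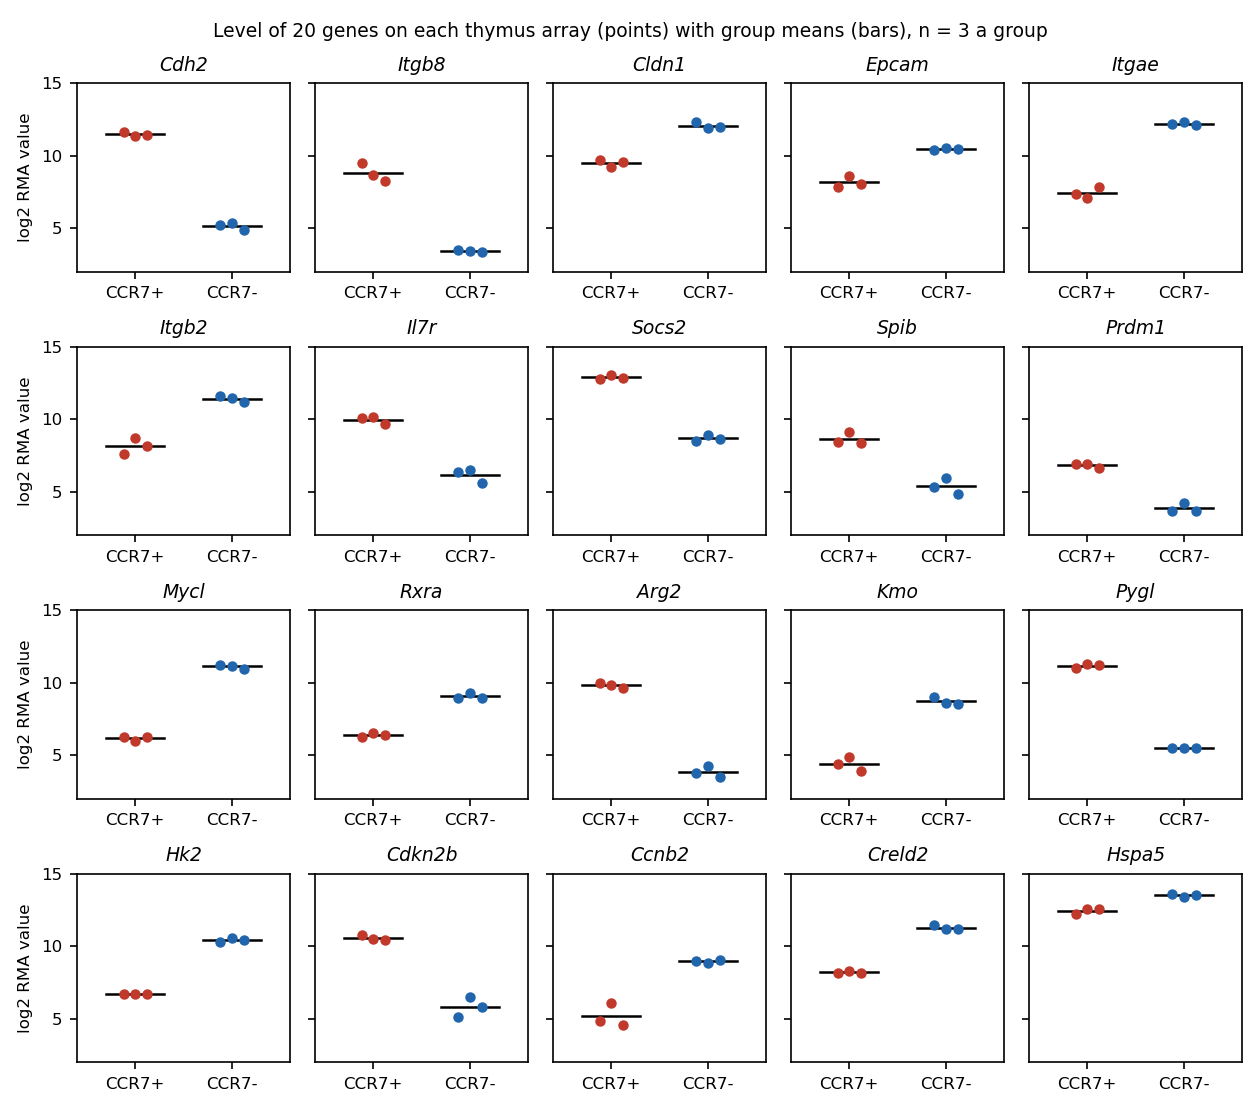
Log2 RMA value (y axis) of 20 genes on the 3 CCR7+ and 3 CCR7- thymus arrays, with group means as bars. The CCR7+ and CCR7- arrays overlap for none of the genes drawn, with Cdh2 at 11.46 in CCR7+ and 5.16 in CCR7- cells and Kmo at 4.42 in CCR7+ and 8.72 in CCR7- cells.

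Of 33 genes of Toll-like, nucleic acid and NOD sensing 14 fell and 7 rose (4 without CCR7- replicate 3 or without CCR7+ replicate 2). Changes over the list ran from -5.70 to 2.06. Tlr4 (-1.91), the receptor of lipopolysaccharide, fell and its partner Ly96 rose (2.06). Cd180 (-2.43), the adaptors Tirap (-1.66) and Myd88 (-1.70), the DNA sensor Cgas (-1.68) and Dhx58 (-1.45) fell, and Tlr7 (0.15) and Tlr9 (-0.16) were not called. Casp1 (1.33) and Casp4 (1.29), proteases of the inflammasome, rose. Lectins and scavenger receptors rose in 5 of 30 cases (3 without CCR7- replicate 1 or without CCR7+ replicate 2) and fell in 5. Scarb1, a receptor of lipoproteins and apoptotic cells, had 5.08, 4.71 and 4.95 in CCR7+ cells, against 8.76, 9.21 and 9.11 in CCR7- cells, and Cd68 fell by 3.07. Clec7a, the receptor of fungal glucans, rose (0.94).

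Purine receptors and ectoenzymes, which read and remove extracellular ATP, ADP and UDP sugars, rose in none of 17 cases (1 without CCR7+ replicate 1) and fell in 8 (median -0.48). P2ry14, the receptor of UDP-glucose, had 4.72, 4.34 and 4.37 in CCR7+ cells, against 10.36, 10.19 and 10.15 in CCR7- cells, and P2ry6, the receptor of UDP, had 5.06, 5.56 and 5.21 in CCR7+ cells, against 10.54, 10.75 and 10.55 in CCR7- cells. Entpd1, the ectoenzyme CD39, had 4.55, 4.17 and 4.26 in CCR7+ cells, against 8.24, 8.37 and 7.97 in CCR7- cells (log2 fold change -3.87, SE 0.26, adjusted p = 4.77e-08). All CCR7+ arrays lay below all CCR7- arrays for each of these. P2rx7 (-2.23), P2ry12 (-1.78) and Adora3 (-1.54) fell, and Nt5e (-0.19), the CD73 that follows CD39 in adenosine production, was not called.

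Enzymes and receptors of lipid mediators rose in 5 of 26 cases and fell in 8. Ptgs2, cyclooxygenase 2, had 10.10, 9.45 and 11.26 in CCR7+ cells, against 5.21, 4.41 and 5.91 in CCR7- cells (log2 fold change 5.10, SE 0.58, adjusted p = 8.7e-06). Alox5ap, the partner of 5-lipoxygenase in leukotriene synthesis, had 7.66, 7.24 and 7.78 in CCR7+ cells, against 12.32, 12.28 and 12.48 in CCR7- cells (log2 fold change -4.80, SE 0.31, adjusted p = 3.88e-08). Of the receptors of prostaglandin E2, Ptger4 rose (1.85) and Ptger2 (-3.56) and Ptger3 (-1.46) fell. Cysltr1, a leukotriene receptor, fell by 4.45, and Alox5 (-0.11) and Ptges (-0.02) were not called.

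Genes of antigen processing changed in both directions. Of 31 lysosomal genes 9 rose and 7 fell, and changes over the list ran from -5.335 to 3.25. Lgmn, a protease that cuts after asparagine, had 10.83, 10.88 and 10.96 in CCR7+ cells, against 7.96, 7.18 and 7.79 in CCR7- cells, and Lamp1 (2.67), Ctsl (1.10), Ctsh (0.97) and Ctsd (0.97) rose. Lipa, the acid lipase (-2.05), Ctse (-1.29), Psap (-1.17) and Hexa (-1.23) fell, and Ctss (0.06), the main invariant chain protease of DCs, was not called. Of 27 genes of cross-presentation and phagosome control 7 rose and 7 fell. Rab7b had 6.59, 6.03 and 6.57 in CCR7+ cells, against 11.65, 11.55 and 11.77 in CCR7- cells, Rab43, a GTPase used in cross-presentation, fell by 1.62, and the subunits of the phagocyte oxidase split, with Ncf1 (1.10) and Cyba (0.80) higher and Ncf4 (-2.97) lower.

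In the MHC class II pathway 4 of 16 genes rose and 7 fell. Marchf1, the ligase that sends class II molecules and CD86 to lysosomes, had 5.32, 5.29 and 4.47 in CCR7+ cells, against 9.74, 9.13 and 8.99 in CCR7- cells (log2 fold change -4.26, SE 0.40, adjusted p = 1.24e-06). Cd83, which opposes that ligase, rose (1.49). Ciita, the master activator of class II genes, had 5.02, 5.70 and 4.84 in CCR7+ cells, against 7.88, 7.67 and 7.403 in CCR7- cells (log2 fold change -2.46, SE 0.34, adjusted p = 4.43e-05). The peptide exchange genes H2-DMa (-2.71) and H2-Ob (-2.95) fell, H2-Ab1 fell by 0.79, and H2-Aa (-0.17), H2-Eb1 (-0.25) and Cd74 (-0.30) were not called. These calls depended on the settings, as H2-Aa fell on its probe set of largest variance (-0.69), and H2-Eb1 and Cd74 were called as lower with limma's trend and robust options. Of 19 class I genes 6 rose and 2 fell (1 without CCR7- replicate 1, 2 or 3 or CCR7+ replicate 2, and none without CCR7+ replicate 1), with the peptide editor Tapbpl (2.08), the activator Nlrc5 (1.22) and Cd1d1 (0.95), which presents lipids, among the rises.

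Metabolic genes also moved both ways. Of 29 amino acid enzymes and transporters 7 rose and 14 fell. Arg2, the mitochondrial arginase, had 9.97, 9.82 and 9.66 in CCR7+ cells, against 3.78, 4.23 and 3.47 in CCR7- cells (log2 fold change 5.99, SE 0.23, adjusted p = 8.11e-10). Ido1, the first enzyme of tryptophan breakdown to kynurenine, had 7.399, 7.50 and 7.396 in CCR7+ cells, against 5.52, 5.02 and 5.06 in CCR7- cells (log2 fold change 2.23, SE 0.31, adjusted p = 5.24e-05). Kmo, which takes kynurenine further, had 4.40, 4.90 and 3.95 in CCR7+ cells, against 9.05, 8.61 and 8.52 in CCR7- cells (log2 fold change -4.31, SE 0.65, adjusted p = 0.000106), and the next enzyme Kynu fell by 0.93. Ido1 and Kmo thus changed in opposite directions, with no overlap of arrays. The cystine transporter Slc7a11 rose (1.55), and the transporters Slc7a1 (-1.94), Slc7a5 (-1.30), Slc1a5 (-1.59) and Slc38a1 (-2.15) and the serine and glycine enzymes Psat1 (-2.19), Psph (-1.46) and Shmt2 (-2.63) fell. Asns, asparagine synthetase, fell to 7.33, 7.76 and 7.69 in CCR7+ cells, against 9.69, 9.21 and 9.43 in CCR7- cells.

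Of 25 glycolysis and glycogen genes 6 rose and 8 fell. Pygl, which releases glucose from glycogen, had 11.04, 11.31 and 11.19 in CCR7+ cells, against 5.48, 5.48 and 5.49 in CCR7- cells (log2 fold change 5.70, SE 0.34, adjusted p = 1.68e-08). Eno2, the neuronal enolase, had 8.10, 8.49 and 8.98 in CCR7+ cells, against 3.79, 4.15 and 3.85 in CCR7- cells (log2 fold change 4.59, SE 0.43, adjusted p = 1.24e-06). Hk2, a hexokinase, had 6.70, 6.74 and 6.74 in CCR7+ cells, against 10.29, 10.56 and 10.41 in CCR7- cells (log2 fold change -3.70, SE 0.30, adjusted p = 3.4e-07). Of the glucose transporter genes tested in the list, Slc2a6 rose (2.48), Slc2a1 fell (-1.53) and Slc2a3 (-1.43) was not called. The enzyme genes Tpi1 (-1.29), Pfkp (-1.45) and Pgam1 (-1.48) fell while Gapdh (-0.19) and Pkm (-0.55) were not called. Of 31 fatty acid and glycerolipid genes 13 fell and 6 rose (3 without CCR7- replicate 3). The synthesis enzymes Fasn (-1.87), Acaca (-1.33), Scd2 (-1.90), Elovl6 (-2.19) and Fads1 (-1.78) fell, and so did Dgat2, the last step to triglycerides, which had 6.48, 6.86 and 6.94 in CCR7+ cells, against 9.20, 9.49 and 9.32 in CCR7- cells. Fabp5, a fatty acid binding protein, rose (2.19), and the oxidation genes Acadvl (0.07), Acadm (0.14), Hadha (-0.28) and Cpt2 (0.38) were not called. In cholesterol synthesis 7 of 17 rose and 3 fell (none without CCR7+ replicate 3), with Idi1 (2.60), Pmvk (1.85) and Fdft1 (1.68) highest. Aldh1a2, which makes retinoic acid, had 4.72, 5.07 and 5.33 in CCR7+ cells, against 3.06, 3.75 and 4.25 in CCR7- cells (log2 fold change 1.35, SE 0.32, adjusted p = 0.00418).

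Mitochondrial gene families fell more often than they rose. Of 44 tested genes with Nduf symbols, subunits and assembly factors of respiratory complex I, 21 fell and none rose (median -0.57). Of 76 genes of mitochondrial ribosomal proteins 36 fell and 6 rose (median -0.43). Of 43 genes of cytosolic ribosomal proteins 5 fell and 4 rose (median 0.02), a smaller share than that of all genes called. The largest falls in the first 2 families, named after their values were seen, were those of Ndufaf6 (-3.03) and Mrps28 (-2.47).

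Genes of proliferation fell in most cases. Of 29 genes of DNA replication and licensing 25 fell and none rose (median -1.88), and of 31 mitotic genes 31 fell (median -2.98). Ccnb2, a mitotic cyclin, had 4.86, 6.06 and 4.60 in CCR7+ cells, against 8.98, 8.87 and 9.09 in CCR7- cells (log2 fold change -3.81, SE 0.47, adjusted p = 1.77e-05). Mcm5, a subunit of the replicative helicase, had 8.38, 8.76 and 8.22 in CCR7+ cells, against 11.21, 11.33 and 11.21 in CCR7- cells (log2 fold change -2.80, SE 0.27, adjusted p = 1.8e-06). Timeless, a protein of the replication fork, fell by 4.46, Prim1 by 3.26 and Pola1 by 3.22. In nucleotide synthesis 15 of 21 fell and 3 rose. The reductase subunit Rrm2 (-3.35), Tk1 (-3.75), Umps (-2.86) and Dut (-2.50) fell, while Ctps2 (1.45) and Prps1 (1.14) rose and Ctps (-2.39), which catalyses the same step as Ctps2, fell.

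The regulators of the G1 phase of the cell cycle went both ways, 7 of 27 higher and 12 lower. Cdkn2b, the inhibitor p15, had 10.75, 10.498 and 10.41 in CCR7+ cells, against 5.15, 6.49 and 5.82 in CCR7- cells (log2 fold change 4.73, SE 0.29, adjusted p = 2.2e-08). Cdkn2a, which lies beside it on the chromosome and encodes p16 and p19Arf, had 6.46, 6.97 and 6.75 in CCR7+ cells, against 3.40, 4.17 and 4.58 in CCR7- cells (log2 fold change 2.67, SE 0.30, adjusted p = 6.55e-06). The inhibitors Cdkn2c (-1.23) and Cdkn2d (-1.12) fell, and Cdkn1b (0.31) was not called. Cdkn1a was not called on the probe set used (0.70) but rose on its probe set of largest variance (1.27). Among cyclins Ccnd2 (2.38) and Ccng2 (2.35) rose and Ccnd1 (-1.86), Ccne1 (-1.77) and Ccne2 (-2.94) fell. Of the E2F factors, which regulate replication genes, E2f8 (-3.88), E2f7 (-3.04), E2f2 (-2.05) and E2f1 (-1.02) fell, while Rbl2, the pocket protein p130, rose (0.88) and Rb1 (0.42) was not called.

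Promoters of these lists were searched for short motifs in the same windows and on both strands. The letters CCAAT were found in 23 of 27 promoters of mitotic genes (85.2%), against 37.1% of promoters of all genes tested and 37.4% of all promoters, and the letters TTTGAA, part of the cell cycle homology region, in 19 of 27 (70.4%), against 12.1% and 17.9%. Both stood in 19 of 27 (70.4%), against 4.71% and 6.95%. The E2F site TTTCGCGC was found in 6 of 28 promoters of replication genes (21.4%), against 0.558% of promoters of all genes tested and 0.323% of all promoters. Of the promoters of genes called at least 4-fold lower 45.8% held CCAAT, 22.8% TTTGAA and 0.975% the E2F site. Of those called at least 4-fold higher the shares were 31.2%, 12.6% and 0.0%. The lists were chosen by function, so their shares describe the lists and not maturation. The sequences of 3 mitotic genes that fell, each holding both motifs, and of 1 replication gene are shown. Ube2c, which tags cyclins for destruction, had 6.90, 7.55 and 6.18 in CCR7+ cells, against 10.69, 10.54 and 11.05 in CCR7- cells. Cdc20, an activator of the anaphase-promoting complex with which Ube2c works, fell by 3.08, and the spindle motor Kif11 by 3.62. Capitals mark CCAAT and TTTGAA in either orientation in the 3 mitotic genes, and only the E2F site in Mcm5, whose CCAAT letters are left in lower case.
Ube2c, chr2:164769679-164769928, + strand: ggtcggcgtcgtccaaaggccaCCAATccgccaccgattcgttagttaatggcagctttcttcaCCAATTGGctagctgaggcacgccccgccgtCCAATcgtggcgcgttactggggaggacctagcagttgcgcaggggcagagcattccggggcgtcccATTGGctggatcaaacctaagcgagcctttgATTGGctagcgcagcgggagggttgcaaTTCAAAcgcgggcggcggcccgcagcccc
Cdc20, chr4:118437344-118437593, - strand: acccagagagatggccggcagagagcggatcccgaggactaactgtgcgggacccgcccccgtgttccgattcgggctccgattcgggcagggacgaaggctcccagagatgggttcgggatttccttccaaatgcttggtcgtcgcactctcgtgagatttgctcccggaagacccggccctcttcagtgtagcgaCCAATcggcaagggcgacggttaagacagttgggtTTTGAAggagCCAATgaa
Kif11, chr19:37376132-37376381, + strand: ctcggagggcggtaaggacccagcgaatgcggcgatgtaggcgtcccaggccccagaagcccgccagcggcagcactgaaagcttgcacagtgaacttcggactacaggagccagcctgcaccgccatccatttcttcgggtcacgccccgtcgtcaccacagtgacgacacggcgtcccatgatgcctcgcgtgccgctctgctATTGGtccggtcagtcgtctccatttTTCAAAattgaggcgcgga
Mcm5, chr8:75109259-75109508, + strand: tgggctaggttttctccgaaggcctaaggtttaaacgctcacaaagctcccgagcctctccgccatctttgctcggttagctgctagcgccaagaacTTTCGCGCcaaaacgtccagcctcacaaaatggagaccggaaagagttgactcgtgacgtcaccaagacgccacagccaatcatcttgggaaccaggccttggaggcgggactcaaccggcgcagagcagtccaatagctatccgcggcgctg
The TTTGAA match began 18 bases before the start in Cdc20, 19 in Kif11 and 29 in Ube2c, and the E2F site 153 in Mcm5.

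Genes of ribosome biogenesis and of protein folding in the ER also fell. Of 30 genes of ribosome biogenesis 27 fell and none rose (median -1.503). Fbl, the methyltransferase of ribosomal RNA, had 8.21, 8.94 and 8.56 in CCR7+ cells, against 11.31, 11.09 and 11.13 in CCR7- cells (log2 fold change -2.61, SE 0.34, adjusted p = 3.02e-05). Wdr12 (-2.86), Nop58 (-2.70), Utp20 (-2.59) and Dkc1 (-2.34), which process or modify ribosomal RNA, fell, and Polr1e (-2.55), a subunit of RNA polymerase I, did too. Of 26 ER chaperones and stress sensors 18 fell and 3 rose (1 without CCR7- replicate 1 or without CCR7+ replicate 3), with a median of -0.98. Hspa5, the chaperone BiP, had 12.24, 12.56 and 12.58 in CCR7+ cells, against 13.60, 13.41 and 13.55 in CCR7- cells (log2 fold change -1.06, SE 0.19, adjusted p = 0.000451). Creld2 had 8.15, 8.32 and 8.16 in CCR7+ cells, against 11.49, 11.19 and 11.21 in CCR7- cells (log2 fold change -3.08, SE 0.31, adjusted p = 2.63e-06). The disulfide isomerases Pdia6 (-2.57) and Pdia4 (-2.34) and the chaperones Hyou1 (-2.20) and Hsp90b1 (-1.39) fell, the sensor Atf6 fell (-0.97), and Atf4 (-0.04) and Eif2ak3 (-0.09) were not called.

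The ER stress element, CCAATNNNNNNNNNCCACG on either strand, was found in 8 of 23 promoters of the ER list (34.8%), against 0.129% of promoters of all genes tested and 0.119% of all promoters. It contains the CCAAT letters, which 19 of the 23 held (82.6%). Of the promoters of genes called at least 4-fold lower 0.39% held the element, and of those called at least 4-fold higher 0.0%. The promoters of Creld2 and Hspa5 are shown with the element in capitals.
Creld2, chr15:88819396-88819645, + strand: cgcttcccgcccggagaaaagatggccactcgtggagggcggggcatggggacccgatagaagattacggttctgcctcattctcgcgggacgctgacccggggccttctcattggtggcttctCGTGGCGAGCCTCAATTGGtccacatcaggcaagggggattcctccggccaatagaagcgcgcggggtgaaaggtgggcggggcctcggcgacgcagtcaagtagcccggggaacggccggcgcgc
Hspa5, chr2:34771840-34772089, + strand: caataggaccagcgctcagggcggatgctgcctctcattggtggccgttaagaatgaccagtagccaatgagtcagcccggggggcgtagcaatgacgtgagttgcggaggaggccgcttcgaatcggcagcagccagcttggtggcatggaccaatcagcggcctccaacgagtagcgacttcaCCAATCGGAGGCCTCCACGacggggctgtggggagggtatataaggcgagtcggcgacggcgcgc
The element began 65 bases before the start in Hspa5 and 126 in Creld2.

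Genes of the BCL2 family, caspases and death receptors, a list that holds inhibitors and promoters of cell death alike, rose in 9 of 24 cases and fell in 3. Bcl2l1, which encodes Bcl-xL, had 9.60, 9.65 and 9.74 in CCR7+ cells, against 7.91, 8.53 and 8.405 in CCR7- cells (log2 fold change 1.38, SE 0.21, adjusted p = 0.000115). Cflar, the inhibitor of caspase 8, rose by 1.88, and Birc2 and Birc3, inhibitors of apoptosis, by 3.07 and 1.54. Of the promoters of death, the receptor Fas (2.51) and Bbc3 (0.61) rose, while Bid (-1.85) and the caspase Casp6 (-2.05) fell. Bcl2 (-0.16) was not called, and Bcl2l11, which encodes the pro-apoptotic Bim, was not called on the probe set used (0.45) but rose on its probe set of largest variance (1.19) and was called with the replicate block.

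Proteases and their inhibitors rose in 8 of 28 cases and fell in 1. Of 21 genes with Serpin symbols 9 rose and 3 fell, among them Serpinf1 (-5.19), which is not in that list. Serpinb6a, an intracellular inhibitor of proteases, had 8.74, 8.78 and 8.94 in CCR7+ cells, against 5.98, 5.95 and 5.82 in CCR7- cells (log2 fold change 2.91, SE 0.15, adjusted p = 3.41e-09), Serpinb6b rose by 2.72, and Serpinb9, which blocks granzyme B, by 2.41. Serpinb1a (4.32), an inhibitor of neutrophil proteases, Plat (4.04), the tissue plasminogen activator, and the epidermal protease Asprv1 (4.45) rose as well. Guanylate-binding proteins, interferon-induced GTPases, rose in 5 of 6 cases (median 2.93). Gbp2b had 8.05, 7.91 and 7.9999 in CCR7+ cells, against 4.07, 3.75 and 4.05 in CCR7- cells, whereas the wider list of type I interferon-stimulated genes had 7 of 30 higher and 11 lower. GTPases of the Gimap family, known from T cells, rose in 7 of 8 cases, Gimap4 by 2.43, and 3 of these 7 calls, those of Gimap1, Gimap3 and Gimap7, ended without CCR7- replicate 1 (Gimap1 and Gimap7 also without CCR7- replicate 3 or CCR7+ replicate 2, Gimap1 without CCR7+ replicate 3). Gimap4 changed by 2.81 in spleen, again beside B cell markers; this gene, Gbp2b and the other Gimap genes were named after their values were seen. Of 277 zinc finger genes with Zfp symbols 78 rose and 16 fell (median 0.18). The share called, 33.9%, was below the 37.3% of all genes, of which 16.8% rose and 20.4% fell.

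Genes best known from neurons included several of the largest rises. Of 24 tested 9 rose and none fell, and 15 of 39 with a probe set lay below the filter. The share called was 37.5%, close to the 37.3% of all genes, and a gene such as Ndnf or Flrt3, below the filter level of 4.39 on all 3 CCR7- arrays, could hardly fall. Ndnf, a secreted neurotrophic factor, had 10.23, 10.46 and 10.07 in CCR7+ cells, against 3.58, 4.34 and 4.33 in CCR7- cells (log2 fold change 6.17, SE 0.26, adjusted p = 1.34e-09). Flrt3, an adhesion ligand of axons, had 8.65, 8.69 and 8.30 in CCR7+ cells, against 4.12, 4.06 and 4.21 in CCR7- cells (log2 fold change 4.42, SE 0.18, adjusted p = 1.22e-09). Ramp3, a partner of calcitonin family receptors, had 8.48, 8.60 and 8.73 in CCR7+ cells, against 4.47, 4.78 and 4.82 in CCR7- cells (log2 fold change 3.91, SE 0.18, adjusted p = 2.15e-09). Oprd1, the delta opioid receptor, rose by 5.68, Efna2 by 2.43 and Syt11 by 1.53, while Penk (0.02), which encodes opioid peptides, was not called. The ion channel genes Tmem176a (4.38) and Tmem176b (3.91) rose together and the potassium channel Kcnn4 fell (-2.30), in a list with 5 of 27 higher and 5 lower (3 without CCR7- replicate 3 or without CCR7+ replicate 1). Tetraspanins and exosome proteins fell in 8 of 21 cases (5 without CCR7+ replicate 3), Cd53 by 3.17 and Cd9 by 1.30, and rose in 3, led by Tspan3 (2.43).

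Several of these changes differed from those of the spleen. The difference of the 2 changes, thymus minus spleen, was called for 3.18% of genes, 244 more positive (1.79%) and 189 more negative (1.39%) in the thymus. Same-numbered arrays of thymus and spleen deviated together within each fraction (correlations of deviations across genes from 0.42 to 0.59). With the replicate number as a block within the CCR7+ and within the CCR7- arrays the counts were 628 and 407. Left-out arrays moved the count of more positive genes to 144 (without thymus CCR7- replicate 3), 149 (without thymus CCR7+ replicate 2), 156 (without thymus CCR7- replicate 2) and 161 (without spleen CCR7- replicate 3). Igfbp4, a binding protein of insulin-like growth factors, had 10.75, 11.52 and 11.36 in CCR7+ cells, against 6.32, 6.81 and 5.71 in CCR7- cells of the thymus, and its change of 4.93 stood against 0.39 in spleen (difference 4.54, adjusted p = 1.53e-05). The changes of its 6 probe sets ran from -0.16 to 4.93.

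Among adhesion genes, Epcam changed by -2.28 in thymus, against -0.02 in spleen (difference -2.26, adjusted p = 0.00755), Cldn1 by -2.55 and -0.13 (difference -2.42, adjusted p = 0.000907) and Cdh1 by -1.51 and 0.35 (difference -1.86, adjusted p = 0.00763). The thymic epithelium list, to which Epcam but not Cldn1 or Cdh1 belongs, averaged 4.93 in spleen CCR7+ and 4.72 in spleen CCR7- cells. This mean of a list does not give the spleen level of any of these genes. A gene near background in spleen could hardly fall there, and the part of this in the differences was not tested. Itga4 changed by 1.37 in thymus, against -0.37 in spleen (difference 1.74, adjusted p = 0.00167), a call that ended on its probe set of largest variance. All 6 called genes of the cadherin and junction list were more negative in thymus. In the protease list all 5 called genes were more positive there, among them Serpinb6a, with 2.91 in thymus and 1.61 in spleen, and Serpinb6b, with 2.72 and 0.84. Of 21 genes with Serpin symbols, however, 4 were called more positive and 2 more negative, Serpinf1 (difference -2.18) among the latter. Mycl changed by -4.96 in thymus and -2.12 in spleen, Slamf1 by 3.49 and 1.01, and Ido1 by 2.23 and -0.39. Cd84 changed by -3.24 in thymus, against -0.04 in spleen, a difference of -3.20 (adjusted p = 8.74e-05). Zmynd15, a repressor known from male germ cells, rose by 1.84 in thymus cells but by 6.59 in those of the spleen (difference -4.74, adjusted p = 0.000504), the most negative difference named. Of the genes on which the account turns, Cdh2, with 6.31 in thymus and 3.95 in spleen, Itgb8, with 5.36 and 2.85, and Arg2, with 5.99 and 5.56, were not called in this test (adjusted p = 0.328, 0.111 and 0.585), which does not show that they changed alike.

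**Figure D4:**
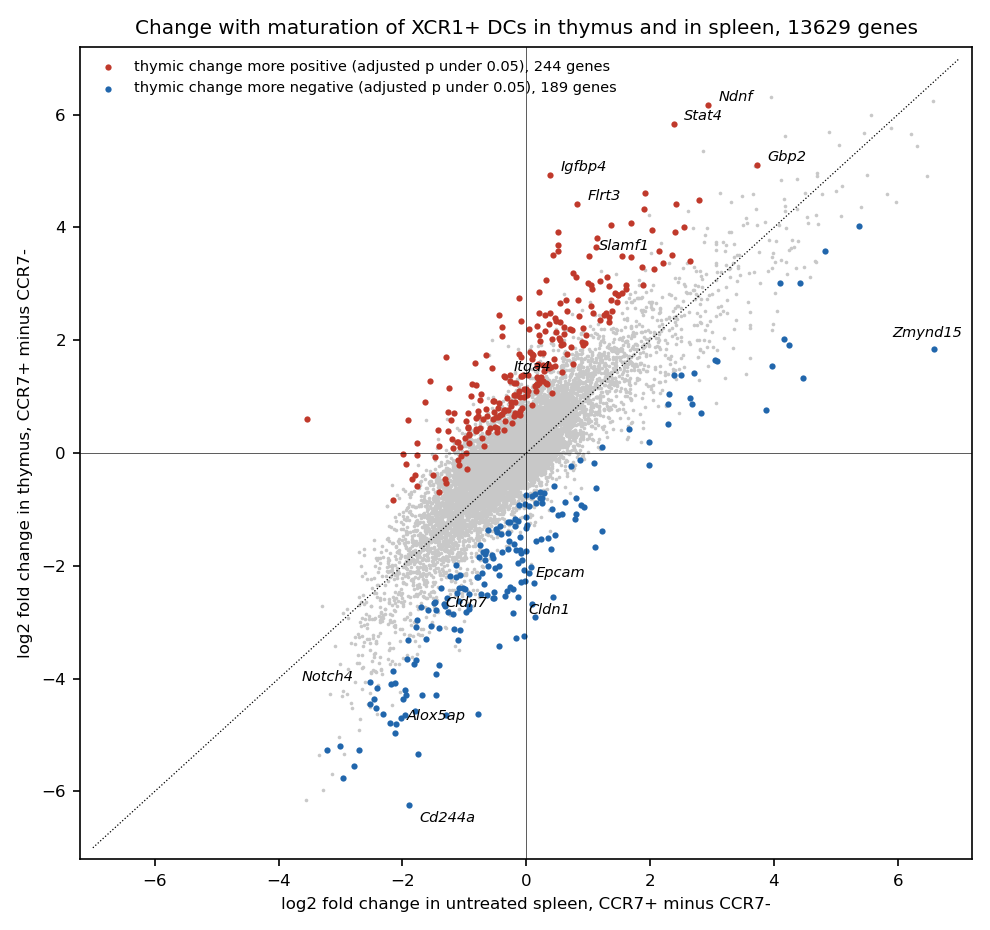
Log2 fold change of each of 13629 genes in thymus (y axis) against that in untreated spleen (x axis), with genes whose change differed between the organs in colour and the line of equal change dotted. Flrt3 and the other coloured points above the line rose more or fell less in thymus, and Cd244a and the other coloured points below it rose less or fell more.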

How the data were processed

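The deposited values are log2 signals of 45101 probe sets on Affymetrix mouse expression arrays, which the authors made with RMA in the affy package, per the submitters' processing notes (no version is named). RMA corrects background, normalizes quantiles and summarises probes, and which arrays were normalized together is not stated. Per the labels' protocols, the RNA passed 2 rounds of cRNA amplification before labelling, which favours 3' ends. No depth exists for arrays, so 3 arrays a group limit the precision.

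For each of the genes named by probe sets with 1 symbol (34958 of 45101, 34754 of them matched by Entrez ID, with no symbol in need of updating), the probe set of highest mean was kept. Genes over 4.39 (the 40th percentile of the whole table) on 3 or more arrays were tested with limma 3.58.1 (R 4.3.3): lmFit and eBayes on 5 group means of 15 arrays, with Benjamini-Hochberg adjustment over all 13629 genes. The same fit tested the thymic minus the splenic change. Lists are described by counts and medians, with no set test. The fit was tested on simulated data. Members and gene lists were chosen with earlier results of these data known.

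Genes were drawn mostly from those given by a rule. It took the 25 largest rises and falls, and up to 8 called members of each list in each direction. It also took markers and up to 3 uncalled members of each list with the smallest change. The 8 largest differences of each sign between tissues were added. This rule gave 725 genes, of which 332 are named here, so members with the largest changes of a list can be missing. Outside the rule stand 71 of the 403 genes named, chosen after their values were seen. They are mostly genes given as not called, NF-kB and cell cycle members beyond the first 8, Hspa5, and genes of symbol families.

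The replicate numbers of the titles were checked as pairs. Same-numbered arrays of thymus and spleen deviated together within each fraction (correlations 0.462, 0.42 and 0.59 for CCR7+ and 0.574, 0.524 and 0.556 for CCR7-), so the difference between tissues is also given with that number as a block within fractions. Other filters, probe set choices, normalizations, variance models, sets of arrays and left-out arrays were tried. Promoters are RefSeq windows on GRCm38.p6.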

Additional observations from a re-analysis of the deposited data

Results flagged for a closer look

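Changes of 53 genes named above or here differed between thymus and untreated spleen in the test of the difference itself (thymic minus splenic log2 change, limma, adjusted p under 0.05). Each kept its call with the replicate number as a block within the CCR7+ and within the CCR7- arrays. That alternative was chosen after seeing the data and called more genes, so it is a weak check. With 1 array left out 38 of the 53 always kept their call, and 15 lost it at least once.

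More positive in thymus by the widest margins were Igfbp4 (4.54), Flrt3 (3.60), Stat4 (3.44), Ramp3 (3.40) and Ndnf (3.24). Thbs4 (2.70), Gbp2b (2.67), Ido1 (2.62), Slamf1 (2.49), Prps1 (2.39) and Mxi1 (2.05) followed. Serpinb6b (1.88), Itga4 (1.74), Serpinb6a (1.30) and Il18bp (1.13) were more positive by smaller margins, and the call of Itga4 ended on its probe set of largest variance. For 8 more genes the call ended when any 1 of 5 to 9 of the 12 arrays was left out: Nr4a2 (2.87), Rag1 (2.65), Prdm1 (1.61), Ccl25 (1.41), Rbl2 (1.32), Ctps2 (1.17), Serpinb9 (1.07) and Osm (0.995). Rag1 is a T cell marker, and the part of thymocytes in its difference was not tested.

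More negative in thymus were Zmynd15 (-4.74), Cd244a (-4.34), Cd84 (-3.20), Mycl (-2.84) and P2ry14 (-2.79). Alox5ap (-2.70), Tnfsf13b (-2.61), Wdfy4 (-2.60), Itgae (-2.58) and Rab7b (-2.57) followed. Cldn1 (-2.42), Epcam (-2.26), Cldn7 (-2.14), Cdh1 (-1.86) and Cadm1 (-1.18) belong to the adhesion list. Serpinf1 (-2.18), Pvr (-2.14), Mgl2 (-2.12), Dgat2 (-2.04), Notch4 (-1.74), Rgs2 (-1.57), H2-DMa (-1.40) and Asns (-1.32) were also more negative. The calls of Cadm1, Pvr and Rgs2 ended under another choice of probe sets. The call ended when any 1 of 5 to 11 of the 12 arrays was left out for Fzd7 (-1.90), Rxra (-1.36), Ppt1 (-2.78), Ncf4 (-1.198) and Vsir (-1.05). That of Sult1a1 (-2.78) ended without thymus CCR7- replicate 3, and that of Entpd1 (-1.71) ended without thymus CCR7- replicate 2 or without thymus CCR7+ replicate 2.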

How the results depend on the processing

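The counts of genes higher (2293) and lower (2786) in thymus CCR7+ cells stayed within 1.5 times of these under all alternatives. Apart from left-out arrays they ran from 1999 to 2484 and from 2346 to 3107. With 1 array left out they ran from 1923 to 2145 and from 2347 to 2571. Same-numbered thymus CCR7+ and CCR7- arrays did not deviate together (correlations 0.0396, -0.0612 and 0.161), and with the replicate block the counts were 2350 and 2818. Same-numbered arrays of thymus and spleen deviated together within a fraction but not between unlike fractions (correlations from -0.355 to 0.125). A handling step that followed the fraction, which no label names, could not be told apart from the change between CCR7- and CCR7+ cells. For the difference from spleen, counts of genes more positive (244) and more negative (189) ran from 144 to 358 and from 126 to 217 with 1 array left out, and were 265 and 202 with the replicate block over all groups. With the block within fractions, an alternative chosen after seeing the data, they were 628 and 407; the cause was not tested. Of 338 named genes called, 334 kept their call and direction under all alternatives run for thymic maturation; Irf8 lost it on its probe set of largest variance, and Gimap1, Gimap3 and Gimap7 with arrays left out. Of 65 named genes not called, 19 were called under at least 1 alternative, 12 of them under another choice of probe sets (Bcl2l11, Cd74, Cdkn1a, Cyld, Fscn1, H2-Aa, H2-Eb1, Id2, Ifnar1, Nfkbia, Tgfb1 and Zap70, with Ifnar1 and Zap70 there in the other direction). Of 1888 recomputed list counts 91 moved by more than 1.5 times, mostly counts of few genes. No scaling moved the median of all genes by more than 0.1. Probe sets near background have compressed changes, and 5971 genes had an unadjusted p under 0.05.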

Other observations

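Some of the widest changes lay outside the gene lists. Scin, which encodes scinderin, an actin-severing relative of gelsolin, had 12.28, 12.17 and 12.29 in CCR7+ cells, against 6.87, 8.10 and 6.96 in CCR7- cells (log2 fold change 4.94, SE 0.51, adjusted p = 3.25e-06), while Gsn, the gelsolin gene, fell. Scn4b, a beta subunit of sodium channels, had 10.90, 11.16 and 10.93 in CCR7+ cells, against 6.10, 6.33 and 6.03 in CCR7- cells, and the transporter gene Slco5a1 rose by 4.65. Thbs4, a thrombospondin of the extracellular matrix, had 8.83, 9.41 and 9.06 in CCR7+ cells, against 4.33, 4.77 and 4.37 in CCR7- cells, and changed by 1.91 in spleen. For each of these the CCR7+ arrays lay above the CCR7- arrays.

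Among the falls, Sult1a1, a sulfotransferase of phenols, had 5.55, 4.80 and 5.54 in CCR7+ cells, against 10.83, 10.59 and 11.14 in CCR7- cells (log2 fold change -5.56, SE 0.41, adjusted p = 1.27e-07). Serpinf1, which encodes the secreted factor PEDF, fell by 5.19, and Acss1, which makes acetyl-CoA from acetate in mitochondria, by 4.62. Ppt1, a lysosomal thioesterase, had 8.79, 8.57 and 9.16 in CCR7+ cells, against 13.38, 13.48 and 13.40 in CCR7- cells. All CCR7+ arrays lay below all CCR7- arrays for these genes too.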
